A study of Schizosaccharomyces pombe with 40 samples.

Results

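The 4 genes mei2, pat1, mei3 and sme2 form the switch that commits fission yeast to meiosis, and they were chosen by their identifiers from the 12684 features of one count table. Poly(A)+ RNA had been counted in 40 libraries of Schizosaccharomyces pombe, 2 for each of 20 groups. Both strains were haploid h- cells with the alleles leu1-32 and pat1-L95G::kanR, and the mutant also carried snR107kloopmut (kloopmut from here on), in which bases of the box C/D snoRNA snR107 were changed, while the other strain (wt) was wild type only at that locus. Each strain was sampled in vegetative growth (V), after overnight nitrogen starvation (N) and at 1 to 8 h after leucine, NH4Cl and 25 µM 3-MB-PP1, an inhibitor of the Pat1-L95G kinase, had been added to the starved cells. The study asked what snR107 does to the control of Mei2 and of meiotic transcripts. Meiosis was here forced in haploid cells of 1 mating type by a drug, so the upstream steps that need both mating types were bypassed. The labels give the libraries of a group as biological replicates, and the replicates of a strain were read as cultures sampled through all stages. The main fit took the 40 libraries as independent, although stages of 1 culture are repeated samples of it. Its p-values thus measure the spread between the 2 libraries of a group, pooled over the 20 groups.

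In growing cells the kinase Pat1 phosphorylates the RNA-binding protein Mei2 and so keeps meiosis off. In diploid cells that starve, products of both mating types induce mei3, whose protein inhibits Pat1, and unphosphorylated Mei2 then starts premeiotic DNA synthesis and meiosis I. Mei2 also binds meiRNA, the long non-coding RNA made from sme2, and together they hold the RNA elimination factor Mmi1 in a dot at the sme2 locus, which spares the meiotic mRNAs that Mmi1 would otherwise remove. Mmi1 recognises the hexamer UNAAAC, which is clustered in its target RNAs.

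The intervals counted for each gene set the limits of what follows. The mei2 feature (SPAC27D7.03c) was chromosome I, 4510983 to 4515025, on the minus strand, and pat1 (SPBC19C2.05) was chromosome II, 1682861 to 1684555, on the plus strand. Both have the start and end of the RefSeq genes of assembly ASM294v3. For mei3 (SPBC119.04) the table gave chromosome II, 719585 to 720990, on the plus strand, which begins upstream of the RefSeq start at 719719. The table placed sme2 (SPNCRNA.103) at chromosome II, 338363 to 339421, on the minus strand, whereas RefSeq places it at 339346 to 340907, so that the 2 intervals share 76 bases. Values called sme2 below are those of the table's interval. The lncRNA feature SPNCRNA.4674, at 339378 to 340150 on the opposite strand, lies wholly inside the RefSeq gene and shares 44 bases with the table's interval, and was read as a second stretch of the locus.

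The table's sme2 interval was dense in the Mmi1 hexamer. It held 22 matches to TNAAAC on its own strand and 6 on the other strand, or 20.8 matches per kb, a density that 0.0158% of 12638 features reached. Its densest 300-base window held 11 matches, and 1 of 10955 features of at least 300 bases, sme2 itself, had so many (0.00913%). The RefSeq interval of sme2 held 9 matches, of which 8 fell in 1 such window. For the other genes the counts were ordinary: 2 in mei2, 5 in pat1 and 5 in mei3, densities that 76.1%, 20.9% and 13.9% of features reached. The window is shown because it carries 11 of the 22 hexamers of the interval. It lies at chrII:339112-339411 (ASM294v3, minus strand), with each TNAAAC in capitals.

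sme2: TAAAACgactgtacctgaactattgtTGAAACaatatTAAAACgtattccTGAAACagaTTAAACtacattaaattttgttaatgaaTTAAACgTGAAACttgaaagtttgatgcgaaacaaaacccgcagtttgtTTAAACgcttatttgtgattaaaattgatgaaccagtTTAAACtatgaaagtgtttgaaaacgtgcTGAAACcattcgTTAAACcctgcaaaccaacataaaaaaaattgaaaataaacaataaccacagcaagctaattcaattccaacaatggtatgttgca

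Upstream of mei2 the core of the element bound by Ste11, the transcription factor that starvation activates, occurs in tandem. In the 250 bases before the mei2 start the letters TTCTTTG matched 2 times on the strand of the gene, beginning 160 and 138 bases before the start, and 0 times on the other strand. Of 5112 protein-coding genes, 7.81% had a match on either strand in the same window and 0.704% had 2 or more. The same window held 0 matches for pat1, for mei3 (from either start) and for sme2 (from either interval), which says only that these letters are not there. The stretch before mei2 lies at chrI:4515026-4515275 (ASM294v3, minus strand), with both matches in capitals.

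mei2: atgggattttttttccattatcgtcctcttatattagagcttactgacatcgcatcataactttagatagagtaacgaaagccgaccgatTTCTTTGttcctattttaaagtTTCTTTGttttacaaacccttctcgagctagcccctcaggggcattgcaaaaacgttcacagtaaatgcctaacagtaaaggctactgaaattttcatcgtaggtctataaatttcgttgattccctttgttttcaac

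The inhibitor works because leucine 95 of Pat1 is replaced by glycine (L95G), which opens the kinase to 3-MB-PP1. The reference codon, at chrII:1683143-1683145 (plus strand), stands in capitals below, and the counts do not show which allele a read came from.

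pat1: atttatgtcgttCTCcagtattgtccg

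Strand was not resolved by the counting. Among 173 pairs of features on opposite strands that covered at least 90% of each other, 166 had summed counts within 1.2-fold of each other. A value of pat1 thus includes any RNA of SPNCRNA.5298, which runs antisense over all of it and had 0.878 to 1.304 times its count. Likewise mei2 includes SPNCRNA.4030, SPNCRNA.4031 and SPNCRNA.4032, mei3 includes SPNCRNA.4843 and the last 33 bases of SPNCRNA.324, and sme2 includes SPNCRNA.4673 and 44 bases of SPNCRNA.4674. Sense and antisense RNA cannot be told apart at these loci. Levels are given as RPKM, reads scaled to the length of the feature and to the library size, itself adjusted by TMM. Fewer cells with an RNA and less of it per cell cannot be told apart in such bulk samples.

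Total counts ran from 22889781 to 35440184 per library, where 3 counts equal 0.0846 to 0.131 CPM (counts scaled to library size). The h- label was checked against mating genes: mfm1, a gene for the M-factor pheromone of h- cells, had 125 to 40300 RPKM in kloopmut and 87.7 to 41200 RPKM in wt, while map2, the P-factor gene of h+ cells, had 0.119 to 2.02 RPKM in kloopmut and 0.0819 to 6.22 RPKM in wt. Of the other marker genes listed for h- cells, mfm2, mfm3, mam1 and map3 were above 0 in all 40 libraries, and so were mam2 and map4 among those listed for h+ cells. The listing had the 2 receptors on the wrong side, since mam2 encodes the P-factor receptor of h- cells and map3 the M-factor receptor of h+ cells. Of the mating cassette features the M genes mat1-Mc, mat1-Mi, mat3-Mc and mat3-Mi were found, with mat1-Mi at 3.01 to 381 RPKM in kloopmut and 0 to 318 RPKM in wt. map3 reached at most 38.4 RPKM and map4 at most 183 RPKM, and their part in the results was not tested.

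The 4 genes differed widely in level. By its highest group mean mei2 (493 RPKM) exceeded 92.4% of the 12019 features tested, pat1 (155 RPKM) exceeded 78.2%, sme2 (57.4 RPKM) exceeded 53.6% and mei3 (3.81 RPKM) exceeded 5.33%. The counts behind these levels were 4149 to 77735 for mei2, 170 to 9269 for pat1, 24 to 2700 for sme2 and 15 to 244 for mei3 in the 40 libraries. Statements on mei3 therefore rest on few reads.

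**Figure D1:**
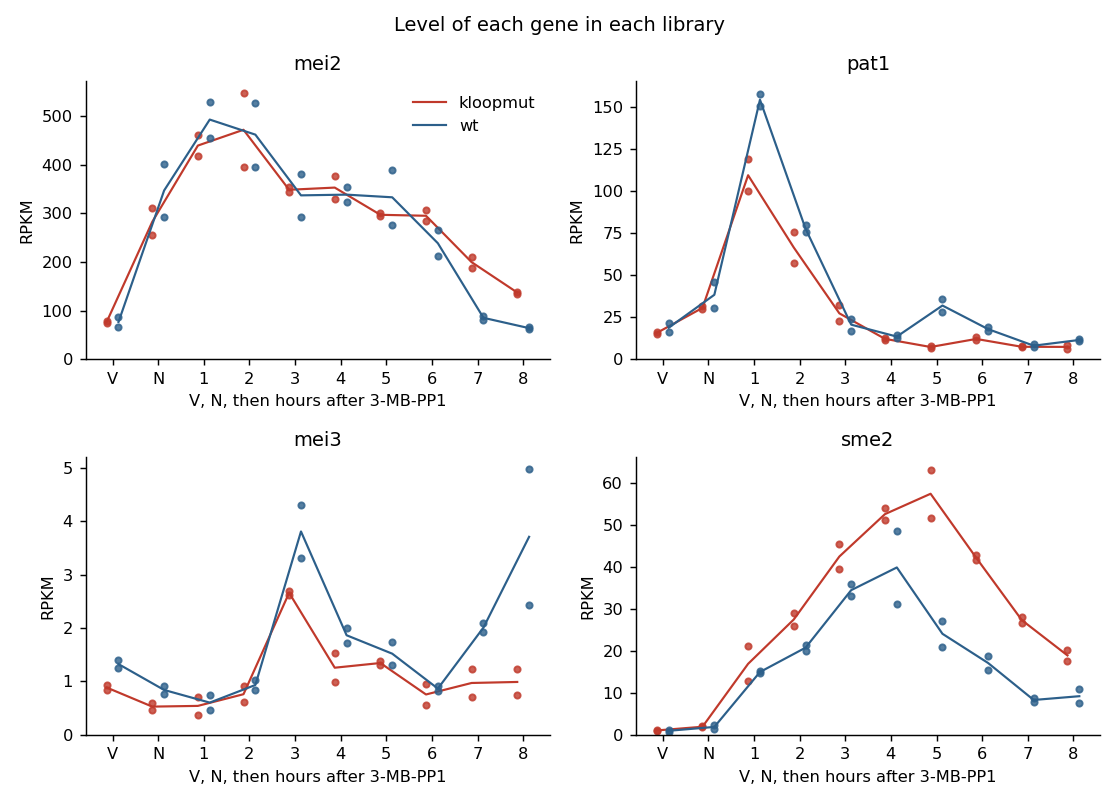
RPKM of mei2, pat1, mei3 and sme2 (1 panel each, linear axes from 0) at V, N and 1 to 8 h after 3-MB-PP1. Points are libraries and lines join the means of 2 libraries, with kloopmut in red left of wt in blue. pat1 peaked at 1 h in both strains, while sme2 was highest at 5 h in kloopmut (57.4 RPKM) and at 4 h in wt (39.9 RPKM).

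Starvation raised mei2, pat1 and sme2 in both strains and mei3 in neither. mei2 had 255 and 310 RPKM in N cells against 74.2 and 78.4 RPKM in V cells of kloopmut, and 293 and 401 RPKM against 65.7 and 87.0 RPKM in wt. The libraries of the 2 stages did not overlap in either strain. The log2 change of mei2 was 1.89 ± 0.19 (SE) in kloopmut (edgeR quasi-likelihood test, Benjamini-Hochberg adjusted p = 2.52e-09) and 2.19 ± 0.19 in wt (adjusted p = 1.69e-10).

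pat1 rose under starvation by a smaller factor than mei2. It had 31.4 and 29.6 RPKM in N cells against 15.2 and 16.0 RPKM in V cells of kloopmut, and 30.5 and 46.1 RPKM against 16.0 and 21.4 RPKM in wt. Its log2 change was 0.97 ± 0.20 (adjusted p = 0.000226) in kloopmut and 1.04 ± 0.20 (adjusted p = 9.72e-05) in wt. sme2 stayed near the bottom of its range, with 1.99 and 1.84 RPKM in N cells against 0.830 and 1.24 RPKM in V cells of kloopmut, and 1.49 and 2.25 RPKM against 0.749 and 1.16 RPKM in wt. Its changes of 0.88 ± 0.31 (adjusted p = 0.0171) in kloopmut and 1.00 ± 0.31 (adjusted p = 0.00817) in wt were past the threshold with edgeR but not with limma-voom (adjusted p = 0.203 and 0.162), nor in kloopmut without replicate 1 (0.54) or in wt without replicate 1 (0.95) or replicate 2 (0.97).

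mei3, the inhibitor that starvation induces in diploids, had 0.463 and 0.593 RPKM in N cells and 0.834 and 0.938 RPKM in V cells of kloopmut, and 0.919 and 0.761 RPKM against 1.40 and 1.25 RPKM in wt. The lower N values did not pass the test (log2 change -0.74 ± 0.41, adjusted p = 0.129, in kloopmut and -0.66 ± 0.39, adjusted p = 0.158, in wt). Thus 3 of the 4 genes were higher in N cells, where 29.0% of tested features were called higher in kloopmut and 29.1% in wt. The change with starvation differed between the strains for 0 of the 4 genes by edgeR (0 at an unadjusted p under 0.05, and 0 with DESeq2 or limma-voom), against 0.674% of all features.

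The first hour after 3-MB-PP1 was also the first after leucine and NH4Cl, and no starved culture was given these nutrients without the drug. Refeeding and Pat1 inhibition thus cannot be told apart as sources of the changes in this hour. Of the 4 genes sme2 moved most. It had 21.1 and 12.7 RPKM at 1 h in kloopmut, 8.85 times the mean of N cells, and 15.1 and 14.8 RPKM in wt, 7.97 times that mean. The log2 changes were 3.14 ± 0.25 (adjusted p = 1.88e-11) in kloopmut and 3.00 ± 0.25 (adjusted p = 5.11e-11) in wt. pat1 itself rose with it, to 109 ± 13.4 RPKM (SD, n = 2) at 1 h in kloopmut (log2 change 1.84 ± 0.20, adjusted p = 1.21e-08) and to 151 and 158 RPKM in wt (2.01 ± 0.20, adjusted p = 2.23e-09). The RNA of the inhibited kinase was thus 3.57 times the mean of N cells in kloopmut and 4.05 times in wt.

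mei2 changed less in this hour. It had 418 and 461 RPKM at 1 h in kloopmut (log2 change 0.64 ± 0.18, adjusted p = 0.00481) and 456 and 530 RPKM in wt (0.51 ± 0.18, adjusted p = 0.0218). These calls were lost when kloopmut replicate 1 (0.57) or 2 (0.69) or wt replicate 1 (0.40) was left out, and in wt with total-count scaling (0.31). mei3 was at 0.367 and 0.716 RPKM in kloopmut and 0.466 and 0.740 RPKM in wt, with log2 changes of 0.041 ± 0.43 (adjusted p = 0.947) and -0.47 ± 0.41 (adjusted p = 0.348). At 1 h, then, 3 of the 4 genes were called higher than in N cells in each strain, where 25.2% of features in kloopmut and 25.7% in wt were.

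Over 1 to 8 h all 4 genes changed from N cells in both strains by an F test with 8 degrees of freedom, as did 92.7% of all features in kloopmut and 96.1% in wt. The adjusted p was highest for mei3 (edgeR, 3.15e-05 in kloopmut and 3.66e-07 in wt) and lay between 5.94e-18 and 2.00e-08 for the others in kloopmut and between 1.15e-17 and 5.75e-14 in wt. Their orders of stages were unlike each other. Across the 20 group means of log2(CPM + 1), Pearson's r was 0.596 for mei2 with pat1, 0.542 for mei2 with sme2, 0.234 for mei3 with sme2, -0.113 for pat1 with sme2, -0.323 for mei2 with mei3 and -0.398 for pat1 with mei3, as a description of points that share libraries and a time course.

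The pat1 course was early and short, with a later second rise in wt. From highest to lowest the stages of kloopmut were 1 h, 2 h, N, 3 h, V, 4 h, 6 h, 7 h, 8 h and 5 h, and those of wt were 1 h, 2 h, N, 5 h, 3 h, V, 6 h, 4 h, 8 h and 7 h. Neighbours whose libraries overlapped were N and 3 h, 4 h and 6 h, 7 h and 8 h, and 8 h and 5 h in kloopmut, and N and 5 h, 3 h and V, and V and 6 h in wt. The highest mean was 15.1 times the lowest in kloopmut and 19.4 times in wt.

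At 5 h the strains parted most in pat1. It had 6.79 and 7.62 RPKM in kloopmut against 28.3 and 35.5 RPKM in wt, where 4 h had been at 14.5 and 12.3 RPKM and 6 h was at 16.5 and 19.2 RPKM. In wt both 5 h libraries lay above all libraries of 4 h and 6 h. In kloopmut a smaller crest fell 1 h later, at 11.1 and 12.9 RPKM at 6 h against 7.70 and 6.95 RPKM at 7 h and the 5 h values above, and it did not clear the 4 h values of 11.4 and 12.7 RPKM. The log2 difference at 5 h was -2.15 ± 0.21 (edgeR adjusted p = 8.91e-10), with every kloopmut library under every wt library, and it was -1.52 with total-count scaling. It shrank to -0.89 against wt of 1 h earlier (adjusted p = 0.00147) and to -0.96 against wt at the placed time described below.

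At the other hours pat1 differed less, and at 3 h it was higher in kloopmut in 3 of 4 comparisons between cultures (0.41 ± 0.20, adjusted p = 0.133). The 1 h peak was at 109 ± 13.4 RPKM (SD, n = 2) in kloopmut against 151 and 158 RPKM in wt, libraries that did not overlap, but the difference of -0.50 ± 0.20 did not pass (adjusted p = 0.214, unadjusted p = 0.0174). At 6 h the difference was -0.57 ± 0.21 (adjusted p = 0.0181), and it turned to 0.22 with total-count scaling and did not pass with limma-voom (adjusted p = 0.0687). At 8 h pat1 had 5.94 and 8.58 RPKM in kloopmut and 10.9 and 11.9 RPKM in wt, a difference of -0.66 ± 0.22 (adjusted p = 0.0149). That call was lost without kloopmut replicate 1 (-0.42), with limma-voom (adjusted p = 0.0984) and against wt of 1 h earlier (-0.14, adjusted p = 0.629).

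sme2 rose over hours and stayed up longer in kloopmut. The stages of kloopmut ran 5 h, 4 h, 3 h, 6 h, 2 h, 7 h, 8 h, 1 h, N and V from highest to lowest, and those of wt 4 h, 3 h, 5 h, 2 h, 6 h, 1 h, 8 h, 7 h, N and V. Overlapping neighbours were 5 h and 4 h, 3 h and 6 h, 2 h and 7 h, and 8 h and 1 h in kloopmut, and 4 h and 3 h, 5 h and 2 h, and 8 h and 7 h in wt. The peak was 55.2 times the V mean in kloopmut and 41.9 times in wt, and both kloopmut cultures peaked at 5 h while the wt cultures peaked at 3 h and at 4 h.

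From 5 h on sme2 was higher in kloopmut than in wt of the same hour. At 5 h it had 51.7 and 63.1 RPKM in kloopmut against 27.2 and 20.9 RPKM in wt. At 6 h the values were 41.6 and 42.7 RPKM in kloopmut against 18.7 and 15.5 RPKM in wt, and at 7 h 26.6 and 28.0 RPKM against 7.76 and 8.82 RPKM. The strains did not overlap at these hours or at 8 h, where sme2 had 17.6 and 20.2 RPKM in kloopmut against 10.8 and 7.58 RPKM in wt. The log2 difference of sme2 grew from 5 h (1.25 ± 0.22, adjusted p = 9.59e-06) and 6 h (1.30 ± 0.22, adjusted p = 8.23e-06) to 7 h (1.72 ± 0.24, adjusted p = 3.24e-07), and was 1.04 ± 0.23 in the last sample (adjusted p = 0.000459). Set against wt of 1 h earlier, the 5 h call of sme2 was lost (0.52, adjusted p = 0.0514).

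Before that sme2 was higher in kloopmut in 4 of 4 comparisons between cultures at 2, 3 and 4 h, but by less than the main edgeR fit called. At 4 h, with 51.1 and 54.0 RPKM in kloopmut and 31.2 and 48.5 RPKM in wt, the difference of 0.40 ± 0.21 had an adjusted p of 0.119 in edgeR. It passed with limma-voom (0.43, adjusted p = 0.0175), with total-count scaling (0.59, adjusted p = 0.0269) and in a fit of that stage alone (0.42, adjusted p = 0.0141). Against wt of 1 h earlier it passed too (0.61, adjusted p = 0.0254). It was 0.75 and passed (adjusted p = 0.0166) without wt replicate 2, the higher of the wt libraries. At 8 h sme2 stood at 32.9% of its peak mean in kloopmut and at 23.0% in wt.

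The stretch of the sme2 locus inside the RefSeq gene moved the same way between strains. SPNCRNA.4674 had 68.6 and 81.1 RPKM at 5 h in kloopmut against 17.7 and 25.7 RPKM in wt, a log2 difference of 1.78 ± 0.25 (adjusted p = 4.81e-07). The next hour gave 1.79 (adjusted p = 8.18e-07) and the hour after it 2.16 (adjusted p = 6.55e-08), while the 8 h value of 0.59 did not pass (adjusted p = 0.0502). Its course differed from that of the table's interval: it was already at 34.4 and 44.5 RPKM in N cells of kloopmut and 26.2 and 23.7 RPKM in N cells of wt, and its 1 h mean was 0.607 times that of N cells in kloopmut and 0.740 times in wt. mrpl8, a mitochondrial ribosomal protein gene that overlaps the far end of the RefSeq gene by 212 of its 1030 bases, was at 53.7 and 50.8 RPKM in kloopmut and 7.14 and 5.97 RPKM in wt at 5 h, a difference of 3.00 ± 0.19 (adjusted p = 1.54e-13). SPNCRNA.1342, between them, was at 1.34 and 1.46 RPKM in kloopmut and 0.550 and 0 RPKM in wt at 5 h.

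mei2 stayed high through the first 5 h and then fell. From 1 h to 5 h its group means lay between 297 and 472 RPKM in kloopmut and between 333 and 493 RPKM in wt. The order of stages was 2 h, 1 h, 4 h, 3 h, 5 h, 6 h, N, 7 h, 8 h and V in kloopmut, with 4 pairs of neighbours that overlapped, and 1 h, 2 h, N, 4 h, 3 h, 5 h, 6 h, 7 h, V and 8 h in wt, with 7. In wt the 8 h mean of 63.7 RPKM was the lowest of the course, under the 76.4 RPKM of V cells, whose libraries it overlapped.

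The fall of mei2 came later in kloopmut. At 6 h it had 306 and 284 RPKM in kloopmut and 212 and 265 RPKM in wt, a difference of 0.31 ± 0.18 that did not pass (adjusted p = 0.141), but did with total-count scaling (1.11, adjusted p = 2.95e-07). At 7 h it had 211 and 188 RPKM in kloopmut against 80.7 and 89.2 RPKM in wt, and at 8 h 139 and 135 RPKM against 61.5 and 65.9 RPKM. Libraries of the strains did not overlap at 7 h or 8 h, and the log2 differences were 1.23 ± 0.19 (adjusted p = 1.49e-06) and 1.10 ± 0.19 (adjusted p = 1.50e-05).

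mei3 was low throughout, with a crest at 3 h in both strains. At 3 h it had 2.62 and 2.70 RPKM in kloopmut and 3.31 and 4.31 RPKM in wt, above the libraries of 2 h and 4 h in each strain, and the strain difference of -0.52 ± 0.36 did not pass (adjusted p = 0.309). Late in the course wt alone climbed again, to 2.44 and 4.98 RPKM at 8 h against 1.23 and 0.750 RPKM in kloopmut. The strain difference in mei3 was -1.89 ± 0.40 in these samples (adjusted p = 0.000282) and -1.04 ± 0.42 an hour earlier (adjusted p = 0.0314). The 7 h call was lost with total-count scaling (-0.61), with limma-voom (adjusted p = 0.0537), in a fit of that stage alone (adjusted p = 0.0604) and when either wt library (-1.10 without replicate 1, -1.06 without replicate 2) or the second kloopmut library (-0.68) was left out. The antisense SPNCRNA.4843 inside mei3 had 0.828 and 0.470 RPKM in kloopmut and 6.59 and 3.48 RPKM in wt at 8 h, so the late rise in wt was seen there too, and reads of the 2 features are shared.

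**Figure D2:**
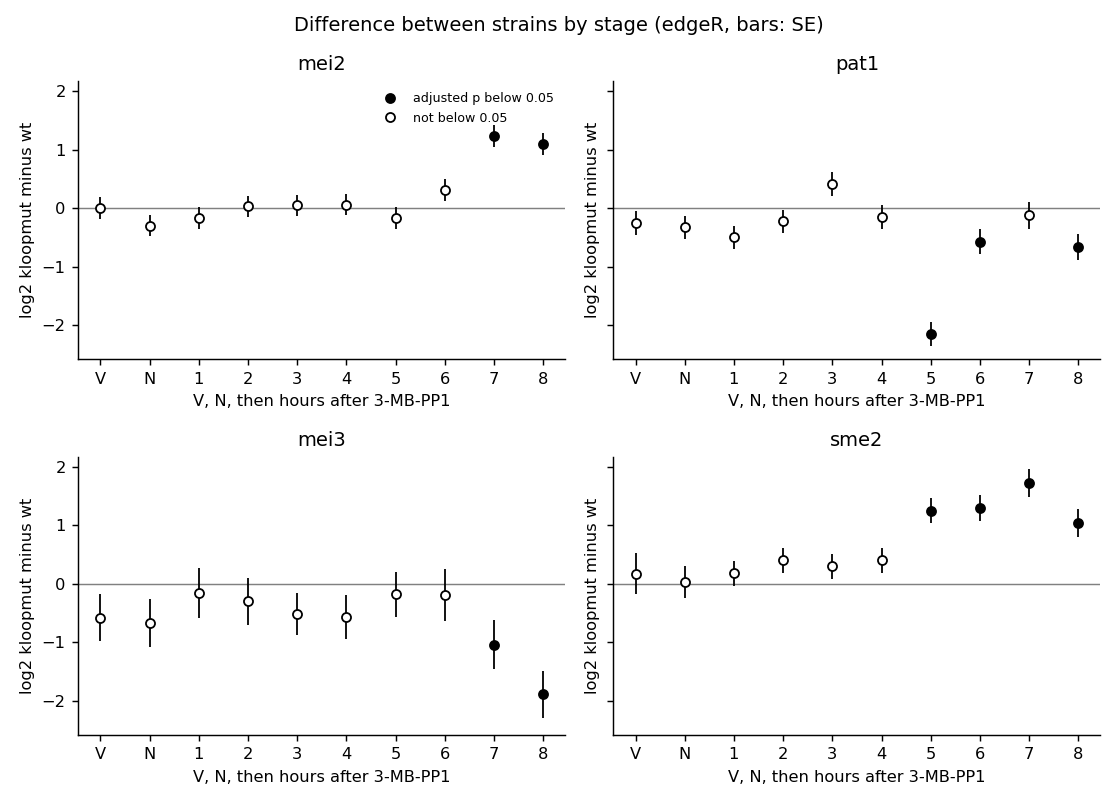
Log2 difference kloopmut minus wt (edgeR, bars are SE) for mei2, pat1, mei3 and sme2 at V, N and 1 to 8 h. Filled points had an adjusted p below 0.05. No filled point lies before 5 h, pat1 reaches -2.15 at 5 h and sme2 reaches 1.72 at 7 h.

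Counted by stage, the strains differed in 0 of the 4 genes in V cells, in N cells and in each of the first 4 h by edgeR. At an unadjusted p under 0.05 the count was 1 at 1 h (pat1) and 0 at the other 5 stages, and DESeq2 called 0 at each, while limma-voom called 1, sme2, at 4 h. Over all features the shares called were 5.94% in V cells, 0.532% in N cells, 1.76% after 1 h, 29.5% after 2 h, 26.8% after 3 h and 50.9% after 4 h. Later, 2 of the 4 were called at 5 h (69.4% of all features), 2 at 6 h (68.5%), 3 at 7 h (65.1%) and 4 at 8 h (53.3%). Most features differed between the strains from 4 h on, so being called there does not set the 4 genes apart.

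Averaged over 1 to 8 h, kloopmut had more sme2 and mei2 RNA and less pat1 and mei3 RNA. The log2 difference was 0.82 ± 0.08 for sme2 (edgeR adjusted p = 1.36e-10) and 0.31 ± 0.06 for mei2 (adjusted p = 0.000108), each higher in 4 of 4 comparisons between cultures. It was -0.50 ± 0.07 for pat1 (adjusted p = 7.56e-07) and -0.60 ± 0.14 for mei3 (adjusted p = 0.000386), each higher in 0 of 4. All 4 were called, as were 77.9% of the features tested. In a test of 1 value per culture they stayed called (adjusted p = 6.52e-06 for sme2, 0.0129 for mei2, 0.000249 for pat1 and 0.0188 for mei3). For mei2 the same-hour difference lay between -0.17 and 0.062 from 1 h to 5 h, and was 1.23 at 7 h and 1.10 at 8 h. The average was not set against wt of 1 h earlier or at the placed time described below. Total-count scaling shifted the median of all features by 0.29 and gave 1.11, 0.59, -0.21 and -0.32 in the same order, and the mei3 call was lost without wt replicate 2 (-0.41, adjusted p = 0.0578). The course itself differed between strains for mei2 (adjusted p = 1.16e-05), pat1 (adjusted p = 1.64e-06) and sme2 (adjusted p = 0.000125) but not for mei3 (adjusted p = 0.117), where 81.8% of all features passed. With limma-voom the sme2 call was lost (adjusted p = 0.0665), and with total-count scaling mei3 passed (adjusted p = 0.0228).

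Ratios within a library do not depend on its scaling. The ratio of mei2 to pat1 RNA fell in the first hour and then climbed. In kloopmut it was 3.51 and 4.61 at 1 h, against 8.11 and 10.5 in N cells, and in wt 3.01 and 3.36 at 1 h, against 9.61 and 8.70 in N cells. By 4 h it was 28.9 and 29.7 in kloopmut and 22.3 and 28.8 in wt. At 5 h the strains separated, with 43.3 and 39.4 in kloopmut and 9.77 and 11.0 in wt, and they stayed apart to 8 h (23.4 and 15.7 in kloopmut, 5.64 and 5.52 in wt).

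The ratio of sme2 to mei2 RNA was higher in every induced library than in N cells of its strain, and in kloopmut it was highest at 5 h. It was 0.00782 and 0.00592 in N cells of kloopmut and 0.00510 and 0.00560 in N cells of wt. At 5 h there was 1 sme2 read per kilobase for 5.69 and 4.75 mei2 reads per kilobase in kloopmut, and for 10.1 and 18.6 in wt. At 6 h the ratio was 0.136 and 0.151 in kloopmut against 0.0878 and 0.0587 in wt. At 8 h the strains overlapped again, with 0.127 and 0.150 in kloopmut and 0.176 and 0.115 in wt. mei3 was under pat1 in all 40 libraries, from 325-fold less in 1 wt library at 1 h to 2.40-fold less in 1 wt library at 8 h. No test was made of these ratios.

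Stretches of mei2 differed between strains in unlike ways. SPNCRNA.4030 covers the 3′ end of mei2, SPNCRNA.4031 a stretch in the middle and SPNCRNA.4032 one nearer the 5′ end, all on the opposite strand, and they hold 274, 895 and 538 bases of it. At 6 h the 3′ stretch had 1510 and 1180 RPKM in kloopmut against 538 and 608 RPKM in wt, a log2 difference of 1.23 ± 0.26 (adjusted p = 0.000146; 0.54 and adjusted p = 0.0726 against wt of 1 h earlier). The middle stretch had 158 and 176 RPKM in kloopmut against 234 and 265 RPKM in wt at the same hour, a difference of -0.58 ± 0.16 (adjusted p = 0.00167; 0.22 with total-count scaling). The 5′ stretch had 39.6 and 44.5 RPKM in kloopmut against 74.5 and 90.2 RPKM in wt, a difference of -0.97 ± 0.38 (adjusted p = 0.0238; -0.17 with total-count scaling, and adjusted p = 0.0803 without wt replicate 2).

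The same opposition was there at 5 h. The differences were 0.60 ± 0.26 at the 3′ end (adjusted p = 0.0403), -0.91 ± 0.16 in the middle (adjusted p = 9.07e-06) and -1.27 ± 0.37 nearer the 5′ end (adjusted p = 0.00358). The 3′ call was lost without wt replicate 1 (0.39) or kloopmut replicate 1 (0.52) and against wt of 1 h earlier (0.22), the other 2 calls with total-count scaling (-0.28 and -0.65), and that nearer the 5′ end also against wt of 1 h earlier (-0.88). At 7 h all 3 stretches were higher in kloopmut than in wt of that hour, by 1.66, 1.02 and 1.13. Against wt of 1 h earlier these values were 0.31 (adjusted p = 0.315), -0.59 (adjusted p = 0.00229) and -0.64 (adjusted p = 0.153), and the 5′ call was also lost with limma-voom (adjusted p = 0.051), without wt replicate 2 (0.83) and without kloopmut replicate 1 (0.79). Free of scaling, the ratio of the 3′ to the middle stretch in RPKM was between 6.73 and 11.0 in the 6 kloopmut libraries of 4, 5 and 6 h, and between 2.29 and 5.56 in the 6 wt libraries of these hours. Replicates of the ratio differed widely at 2 h in kloopmut, with 4.77 in replicate 1 and in replicate 2 the highest value of all 40 libraries. In both strains RPKM fell from the 3′ over the middle to the 5′ stretch at every stage, with means of 243, 61.8 and 17.0 RPKM in V cells of wt. The ratio of the middle to the 5′ stretch was 3.74 to 5.13 in the kloopmut libraries of 4, 5 and 6 h and 2.86 to 3.58 in those of wt. Whether reads of the stretches came from mei2 mRNA or from the antisense RNAs was not tested. Whether the strains differed in read coverage along mei2 as a whole was not tested either.

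**Figure D3:**
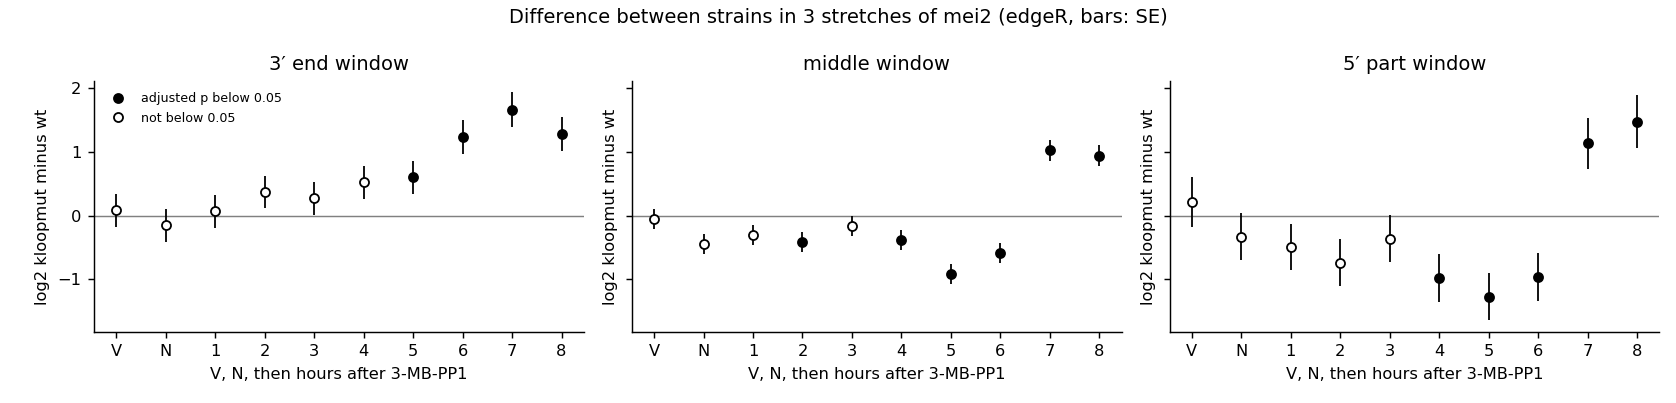
Log2 difference kloopmut minus wt (edgeR, bars are SE) in 3 stretches of mei2 at V, N and 1 to 8 h, from the 3′ end (SPNCRNA.4030, left) over the middle (SPNCRNA.4031) to the 5′ part (SPNCRNA.4032, right). Filled points had an adjusted p below 0.05. At 6 h the 3′ stretch was at 1.23 while the others were at -0.58 and -0.97, and at 7 h all 3 were above 0.

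By their RNA profiles the kloopmut libraries were placed late on the wt time course, so differences at the same hour may compare cells at unequal places. Placement rests on RNA levels alone, and cannot tell slower meiosis from altered RNA levels. From counts of nuclei, the paper reports that its mamRNA and snR107 mutants all delayed meiosis about equally. It holds that a delay was not the only source of the changed meiotic gene expression. Each induced library was placed at the time at which the interpolated wt profile correlated best with it, leaving out the 4 genes and every feature that overlaps them. Both kloopmut cultures of 1 h were placed at 1.0 h, those of 3 h at 2.6 h, those of 5 h at 3.9 h and those of 8 h at 6.5 h. They were furthest behind at 6 h, by 1.6 h and 1.5 h.

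Set against the wt level at the placed time, mei2 lost its late excess, sme2 stayed higher from 2 h on and pat1 was lower at every hour, also at 3 h, where it had been higher at the same hour. At 7 h mei2 had 211 and 188 RPKM in kloopmut, where wt at the placed times of 5.6 and 5.7 h had 273 and 264 RPKM, and the mean log2 difference was -0.43. At 8 h the difference of mei2 was -0.057. sme2 had 51.7 and 63.1 RPKM at 5 h in kloopmut, where wt at 3.9 h had 39.3 RPKM, and its mean difference lay between 0.41 and 0.67 from 2 h to 8 h, above 0 in each library but 1, at 1 h. SPNCRNA.4674 was above the placed wt level in all 16 kloopmut libraries, by 0.33 to 1.81.

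pat1 was under the placed wt level in all 16 kloopmut libraries, by 0.12 to 1.61 on the log2 scale. At 7 h it had 7.70 and 6.95 RPKM in kloopmut, where wt at the placed times had 22.5 and 21.3 RPKM. mei3 went both ways, from a mean of 0.29 at 3 h to -1.43 at 4 h. These values have no test, and they rest on straight lines drawn between hourly wt means.

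**Figure D4:**
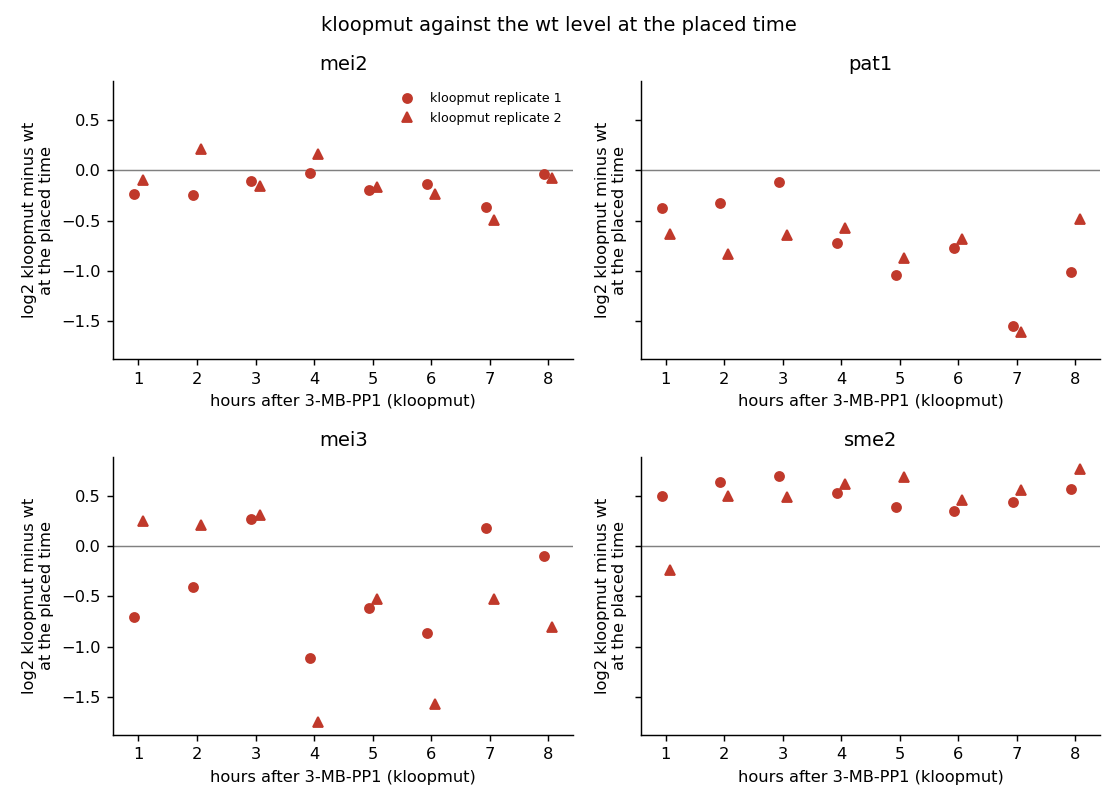
Log2 difference between each kloopmut library and the wt level interpolated at its placed time, for mei2, pat1, mei3 and sme2 at 1 to 8 h after 3-MB-PP1. Circles are kloopmut replicate 1 and triangles replicate 2, and the grey line marks no difference. pat1 lies under the line in all libraries and sme2 above it in all but 1, while mei2 stays between -0.49 and 0.21.

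Among the factors that act above the switch, 10 genes were followed. These were ste11, encoding the transcription factor that induces mei2 on starvation, rst2, a zinc finger activator of ste11, pka1 and cgs1, the catalytic and regulatory subunits of protein kinase A, the stress kinase gene sty1, the transcription factor genes atf1, pcr1 and prr1, and tor2 and mip1 of TOR complex 1. In N cells 5 of the 10 were higher and 2 lower than in V cells of kloopmut (29.0% and 27.1% of all features), and 4 were higher and 2 lower in wt (29.1% and 26.5%). ste11 had 90.1 ± 27.2 RPKM in N cells and 43.4 ± 8.62 RPKM in V cells of kloopmut (SD, n = 2), a log2 change of 1.05 (adjusted p = 0.000155), and 84.4 ± 22.9 RPKM against 50.7 ± 10.4 RPKM in wt (0.73, adjusted p = 0.00485), a call that was lost without wt replicate 1 (0.79) or 2 (0.63).

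In the first hour none of the 10 was called higher, and 7 were lower in kloopmut and 6 in wt (24.1% and 26.7% of all features). pka1 fell most among them, with 9.57 RPKM at 1 h against 39.8 RPKM in N cells of kloopmut and 8.09 RPKM against 38.9 RPKM in wt. Averaged over 1 to 8 h, 8 of the 10 were lower in kloopmut (38.5% of all features) and ste11 alone was higher (0.38 ± 0.08, adjusted p = 6.49e-05, 4 of 4 comparisons between cultures). The median of the list was -0.32, against 0.015 over all features. By hour ste11 was called higher at 3, 4, 5 and 6 h, with 60.5 RPKM in kloopmut and 32.2 RPKM in wt at 3 h. It was not called higher at 1, 2, 7 or 8 h, and had 9.59 RPKM in kloopmut and 13.3 RPKM in wt at 8 h. None of the 10 was set against wt at the placed time.

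Of 8 genes whose products act on Mei2 or with Mmi1, 5 were lower and 2 higher in kloopmut over 1 to 8 h (38.5% and 39.3% of all features), with a median of -0.24. mmi1 was lower by 0.42 ± 0.06 on the log2 scale (adjusted p = 1.54e-07), and so were ubr1, the ubiquitin ligase gene that acts in Mei2 turnover (-0.64), the 14-3-3 genes rad24 (-0.32) and rad25 (-0.17), and mamRNA, the transcript of the snR107 locus (-0.43). Higher were erh1, the partner of Mmi1 (0.76), and mot2, the ubiquitin ligase gene of the Ccr4-Not complex (0.72). rhp6, a ubiquitin-conjugating enzyme gene, was at -0.051 (adjusted p = 0.474). By hour these differences were not uniform. mmi1 was at 5.56 RPKM in kloopmut and 5.14 RPKM in wt at 3 h, and was called lower only from 5 h on. Called higher were mamRNA at 3 h (67.6 RPKM in kloopmut, 42.5 RPKM in wt) and rad25 at 6 h (366 and 168 RPKM) and 7 h. erh1 and mot2 were called higher from 5 h on. None of the 8 was set against wt at the placed time.

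By likeness of pattern over the 20 group means of log2(CPM + 1), among 5001 protein-coding genes that overlap none of the 4, the genes closest to pat1 were mam3, an adhesin gene of h- cells (Pearson's r = 0.944), fsh2 (0.928) and dni1, a cell fusion gene (0.915). mam3 had its wt peak at 1 h too (2080 RPKM) and showed a small 5 h crest in wt. Its wt means were 29.3, 41.7 and 24.5 RPKM at 4, 5 and 6 h, and its kloopmut mean was 16.4 RPKM at 5 h. At the same 3 hours of wt dni1 had such a crest (20.3, 29.1 and 10.7 RPKM), while fsh2 did not (72.8, 81.8 and 91.5 RPKM). Closest to sme2 were tht2 (0.964), num1, which anchors dynein at the cell cortex (0.925), and mug4 (0.922). mei2 was most like ppk33 (0.920), the cohesin loader gene mis4 (0.915) and SPBC1604.16c (0.911), and mei3 most like rav1 (0.797), ppk15 (0.770) and SPAC1B3.08 (0.766). Ranked by Spearman's rho, mam3 and fsh2 stayed among the first 3 for pat1 and none of the others did.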

How the data were processed

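Poly(A)+ RNA-seq of 40 libraries of Schizosaccharomyces pombe was analysed, 2 for each strain and stage. Per the labels and the methods, the authors used bcl2fastq 2.20, fastp 0.23.1 for the reads, STAR 2.6.1d as aligner and featureCounts of Subread 2.0.6 as counter, and deposited one table of raw counts per feature, with the feature length in bases. The aligner's genome build is not given in the sources used here. The 2 replicates of a stage did not agree within sampling noise (chi-square per feature 10.7 to 137) and were kept apart.

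Features passing edgeR's filter (12019 of 12684) were fitted with the quasi-likelihood test of edgeR 4.0.16 (R 4.3.3) in one model of 20 groups with TMM scaling (factors 0.513 to 1.47), 20 residual degrees of freedom and Benjamini-Hochberg adjustment over all tested features, with 0.05 as threshold. The fit was also run on simulated counts, but no result of that run is given here and no conclusion rests on it. Total counts of 22889781 to 35440184 set the precision, and limits from 3 counts cover counting error only. Alternatives were total-count scaling, DESeq2 size factors, DESeq2 1.42.0, limma-voom (limma 3.58.1), no filter, each culture left out, a replicate block, a fit of one stage, 1 value per culture, wt taken 1 h earlier and, chosen after seeing the data, the wt level at the placed time. Placement used log2(CPM + 1) in steps of 0.1 h.

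The genes named are the 4 members, every feature sharing a base with one, the 3 protein-coding genes most correlated with each (at least 5 RPKM in 1 group) and 2 lists, of regulators upstream and of factors acting on Mei2 or with Mmi1. Members and lists were chosen with earlier results of these data known.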

Additional observations from a re-analysis of the deposited data

Results flagged for a closer look

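The change over 1 to 8 h differed between kloopmut and wt for 3 of the 4 genes, by edgeR's F test of strain by time (81.8% of all features passed). The adjusted p was 1.64e-06 for pat1, where the strains differed most at 5 h, and 1.16e-05 for mei2, where they parted at 7 h and 8 h. It was 0.000125 for sme2, where the main fit called the same-hour difference from 5 h on. With limma-voom the sme2 call was lost (adjusted p = 0.0665), leaving 2 of the 4 genes.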

How the results depend on the processing

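Of 1095 tests repeated under other settings, 989 kept their direction and their side of the threshold. The averaged strain differences of mei2, pat1 and sme2 did so in every setting run on them. That of mei3 ran from -0.78 to -0.41 with 1 culture left out, failing without wt replicate 2. No average was set against wt 1 h earlier or the wt level at the placed time. At the placed time the single-hour differences of mei2 lay between -0.43 and 0.063, where its same-hour average was 0.31. The cause of the changes below was not tested.

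Total-count scaling, which moved the median of all features by 0.62 at 5 h and 0.80 at 6 h, turned pat1 to 0.052 at 4 h, to 0.22 in the 6 h libraries and to 0.31 in the 7 h libraries, mei2 to 0.46 at 5 h and mei3 to 0.45 at 5 h and 0.61 at 6 h. It turned SPNCRNA.4031 to 0.22 at 6 h and 0.19 on average, SPNCRNA.4032 to 0.017 on average, mei3 in the first hour of kloopmut to -0.13 and the strain difference of pat1 in its starvation change to 0.011. It took the call from mei2 in the first hour of wt (0.31) and gave mei3 a strain by time call (adjusted p = 0.0228). With limma-voom sme2 lost its starvation calls (0.89 in kloopmut, 0.99 in wt) and its strain by time call (adjusted p = 0.0665), and mei3 in the first hour of kloopmut was -0.014.

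Against wt 1 h earlier, mei2 turned to -0.063 at 2 h and -0.41 at 3 h, and likewise to -0.18 at 6 h and -0.26 at 7 h, mei3 to 0.32 at 2 h, to 1.50 an hour later and to 0.17 in the 7 h libraries, pat1 to -1.51 at 3 h, SPNCRNA.4031 to -0.59 and SPNCRNA.4032 to -0.64 at 7 h. At the placed time mei2 was -0.43 at 7 h and -0.057 at 8 h. The 8 h excess of mei2 did not turn against wt 1 h earlier, with 139 and 135 RPKM in kloopmut above the 80.7 and 89.2 RPKM of wt at 7 h. Against wt 1 h earlier sme2 at 5 h and pat1 at 8 h were no longer called. The same setting also added calls that the same-hour comparison had not made. There sme2 was called higher in kloopmut at 2 h (0.88), 3 h (1.03) and 4 h (0.61). In turn pat1 was called lower at 2 h (-1.22), 4 h (-0.77) and 7 h (-1.28), and mei3 at 4 h (-1.59) and at 6 h.

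With 1 culture left out, changes with starvation ran from 0.54 to 1.25 for sme2 in kloopmut and 0.95 to 0.99 in wt, and first-hour changes from 0.57 to 0.69 for mei2 in kloopmut, 0.40 to 0.65 in wt and -0.36 to 0.27 for mei3 in kloopmut. The strain difference in the starvation change ran from -0.16 to 0.063 for pat1 and -0.45 to 0.28 for sme2. Strain differences that were not called crossed 0, for mei2 from -0.19 to 0.21 in V cells, -0.25 to 0.26 (2 h), -0.13 to 0.22 (3 h), -0.067 to 0.16 (4 h) and -0.39 to 0.073 (5 h). For sme2 they ran from -0.16 to 0.46 in V cells, -0.23 to 0.37 in N cells and -0.25 to 0.47 at 1 h, for pat1 from -0.60 to 0.017 in N cells, and for mei3 from -0.75 to 0.23 at 1 h, -0.36 to 0.011 at 5 h and -0.76 to 0.10 at 6 h.

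Replicate numbers are shared by the strains, but same-numbered libraries deviated together weakly (r = -0.0645 to 0.167 over the 10 stages), so they were not read as pairs. Within a strain, the same culture at neighbouring stages gave r of 0.281 to 0.424 in kloopmut from V to 3 h and 0.00246 to 0.156 later. In wt these r ran from 0.0221 to 0.165. The main fit has no term for such sharing. With the replicate block mei2 at 6 h passed (0.32, adjusted p = 0.0469), and no other strain difference of the 4 genes changed its call. With 2 cultures a strain and 15 to 244 counts, depth and replication limit mei3 most.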
